A study of Mus musculus with 6 samples.

Results

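Dusp1, Dusp4, Dusp5, Dusp6, Spry1, Spry2, Spry4, Zfp36, Zfp36l1 and Zfp36l2 encode proteins that end signals, either by switching off ERK signalling or by removing short-lived mRNAs. They were picked by gene symbol from a table of 18853 mouse genes, and all 10 were present. The table holds RNA sequencing of BMSCs, stromal cells that grow attached to the dish from bone marrow and can become osteoblasts or adipocytes, kept in αMEM with 10% FBS. The tested cells were HRP2-KO (replicates 6, 7 and 44), in which the gene for HRP2 was knocked out, and they were set against WT cells (replicates 10, 11 and 12). HRP2, whose gene is listed as Hdgfl2, is a chromatin protein with a PWWP domain. The labels used here name no allele, strain, sex, age or number of mice. They also do not say that the 3 samples of a group came from separate animals or cultures, so each p-value sets a difference against a spread that may be technical.

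ERK is the last kinase of the cascade that runs from growth factor receptors through RAS, RAF and MEK, and its activity switches on genes for its own inhibitors. Among them are dual-specificity phosphatases (DUSPs), which remove the activating phosphates from MAP kinases, and Sprouty proteins, which act upstream between the receptor and RAF. The ZFP36 proteins bind AU-rich elements, short motifs such as UAUUUAU in the 3′ untranslated region (UTR) of an mRNA, and bring in the CCR4-NOT complex that shortens the poly(A) tail. In stromal cells ERK signalling feeds into RUNX2 and bone formation, and in macrophages ZFP36 restrains mRNAs of inflammatory cytokines such as Tnf.

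Library totals lay between 20184473 and 20680779 estimated counts, and the 10 genes had between 58 and 29880 counts in a library. Levels are given as CPM, counts scaled to library size with TMM factors, except where TPM, which also divides by transcript length, is named. Hdgfl2 itself had 6.59, 5.56 and 11.8 CPM in HRP2-KO replicates 6, 7 and 44, against 51.4, 56.2 and 58.2 CPM in WT replicates 10, 11 and 12. HRP2-KO replicate 7 stood apart from the other HRP2-KO libraries, with a correlation of log2 CPM across genes of 0.884 and 0.861 with those, against 0.912 to 0.934 with the WT libraries. All 15 macrophage markers had counts in every library, 13 of them had a negative log2 fold change, and their summed level was 1395, 15704 and 2830.1 CPM in HRP2-KO replicates 6, 7 and 44, against 28133, 11906 and 10928 CPM in WT replicates 10, 11 and 12. The 10 stromal markers also had counts in every library and summed to between 21766 and 28811 CPM in HRP2-KO and to between 5436 and 10502 CPM in WT, with 5 of the 10 lower and 5 higher in HRP2-KO. Col1a1 and Col1a2 carried most of that sum in HRP2-KO, at 15733 and 11814 CPM in replicate 6, and the mean log2(CPM + 1) of the list was 7.04, 8.22 and 6.99 in HRP2-KO replicates 6, 7 and 44, against 7.38, 8.03 and 7.57 in WT replicates 10, 11 and 12. Pdgfra, Cxcl12, Thy1, Eng and Prrx1 had lower means in HRP2-KO, and Pdgfrb, Lepr and Nt5e had higher means, as did the collagen genes. Cxcl12 was nevertheless highest in HRP2-KO replicate 7, at 1460.3 CPM against 1186 to 1311 CPM in WT. Endothelial, neutrophil, and lymphoid and erythroid marker lists each summed to at most 20.1 CPM in any library. In bulk RNA, fewer cells of a type and less RNA per cell cannot be told apart. The part of the macrophage level in the results below was not tested, and the fold of each of the 10 genes is given with and without HRP2-KO replicate 7.

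The ZFP36 family held the largest of the differences among the 10 genes. Zfp36 was 5.36-fold lower in HRP2-KO and Zfp36l1 2.80-fold lower, while Zfp36l2 differed by 1.31-fold in the same direction. In edgeR with all 6 libraries, neither Zfp36 nor Zfp36l1 passed an adjusted p of 0.05 over the 13696 genes tested. DESeq2 called both, as given below.

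Zfp36 (Entrez 22695, GRCm38.p6 chromosome 7, 28376784 to 28379228) encodes tristetraprolin, the founding member of the family. Its level was 167, 211 and 107 CPM in HRP2-KO replicates 6, 7 and 44, against 866, 918 and 813 CPM in WT replicates 10, 11 and 12. The highest HRP2-KO library was thus far under the lowest WT library. It was replicate 7, whose macrophage markers summed to more than those of WT replicates 11 and 12. The part of the macrophage level in Zfp36 was not tested. The means were 162 ± 52.1 CPM in HRP2-KO and 866 ± 52.3 CPM in WT (SD, n = 3 each). The fitted log2 fold change was -2.42 with a standard error of 0.30 (edgeR quasi-likelihood test, adjusted p = 0.0750). Without HRP2-KO replicate 7 the log2 fold change was -2.62 (edgeR adjusted p = 0.0149).

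Zfp36l1 (Entrez 12192, chromosome 12, 80107760 to 80113013) encodes a paralog that is also an AU-rich element binding protein. Its values were 100.4, 174 and 117 CPM in HRP2-KO replicates 6, 7 and 44, against 443, 299 and 353 CPM in WT replicates 10, 11 and 12. The groups did not overlap, and replicate 7 lay closest to the WT values. The fitted log2 fold change came to -1.49 with a standard error of 0.29 (edgeR adjusted p = 0.0982), and -1.70 without HRP2-KO replicate 7 (edgeR adjusted p = 0.0169).

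Zfp36l2 (Entrez 12193, chromosome 17, 84183924 to 84187947), the third paralog, had 405, 440.2 and 268 CPM in HRP2-KO replicates 6, 7 and 44, against 557, 459 and 442 CPM in WT replicates 10, 11 and 12. The gap between HRP2-KO replicate 7 and WT replicate 12 was under 1% of either value, so the groups were separate in order only. On the log2 scale the fold change was -0.39 with a standard error of 0.26 (edgeR adjusted p = 0.388), and without HRP2-KO replicate 7 it was -0.49 (edgeR adjusted p = 0.190).

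Per transcript length, Zfp36 made up 39.3%, 39.8% and 34.9% of the family's summed TPM in HRP2-KO replicates 6, 7 and 44, against 61.9%, 69.6% and 65.7% in WT replicates 10, 11 and 12. Zfp36l2 had the highest TPM of the family in each HRP2-KO library and Zfp36 in each WT library. In HRP2-KO replicate 7 that lead was narrow, at 242 TPM for Zfp36l2 and 236 TPM for Zfp36. The log2 ratio of Zfp36 to Zfp36l2 TPM was -0.20 ± 0.14 in HRP2-KO and 1.86 ± 0.18 in WT (SD, n = 3 each; exact two-sided permutation p = 0.1, the smallest that 3 against 3 libraries can give, and 0.125 after Benjamini-Hochberg adjustment over 5 pairs of genes compared). The log2 ratio of Zfp36 to Zfp36l1 TPM was 1.07 ± 0.43 in HRP2-KO and 2.04 ± 0.33 in WT, and that of Zfp36l1 to Zfp36l2 was -1.27 ± 0.43 in HRP2-KO and -0.17 ± 0.17 in WT, each with the same exact permutation p. The summed TPM of the family was 516, 591 and 279.7 in HRP2-KO replicates 6, 7 and 44, against 1684, 1784 and 1589 in WT replicates 10, 11 and 12. On the TPM scale the median log2 fold change of all genes was -0.21 (pseudocount 1), against 0.02 in edgeR. That shift is also in these sums.

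**Figure D1:**
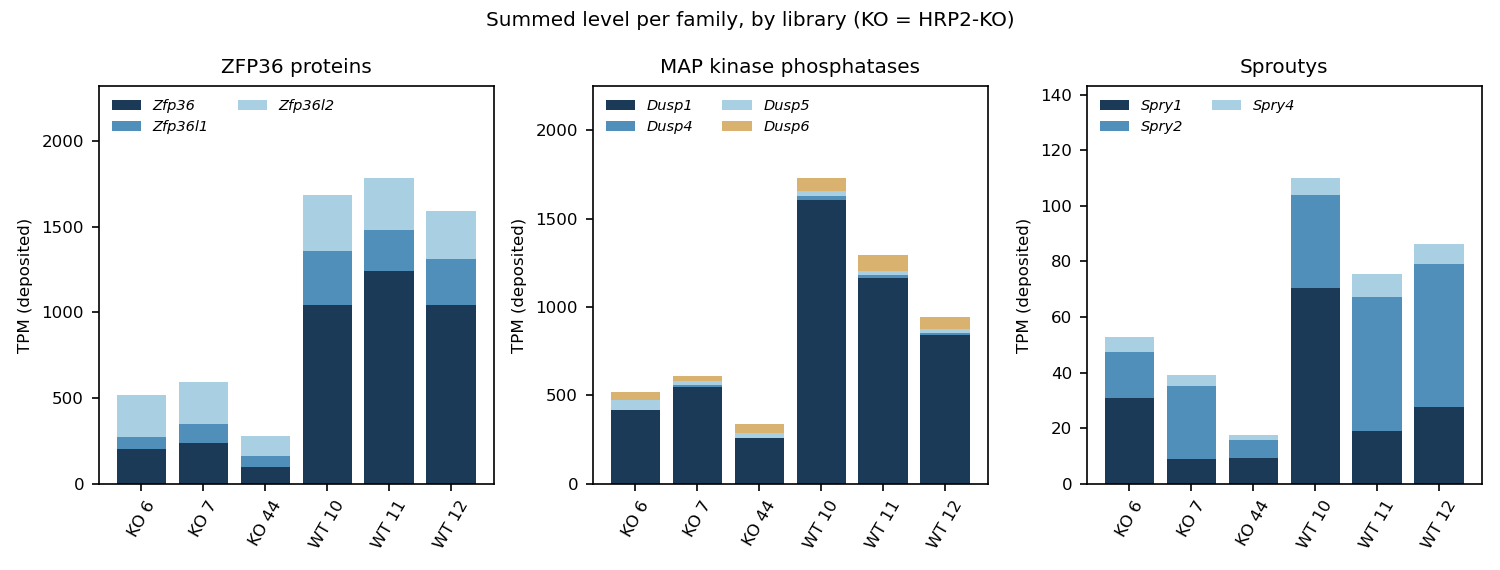
Stacked bars of deposited TPM for the ZFP36, DUSP and Sprouty genes in each library, HRP2-KO replicates 6, 7 and 44 (KO) on the left and WT replicates 10, 11 and 12 on the right, with 1 colour per gene and a separate vertical scale in each panel. Zfp36 makes up 34.9% to 39.8% of its family's bar in HRP2-KO and 61.9% to 69.6% in WT, and Dusp1 makes up 76.6% to 92.9% of each DUSP bar.

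The letters that ZFP36 proteins bind are present in the mRNAs of most of these genes themselves. UAUUUAU was searched on the sense strand of 1 annotated 3′ UTR per gene, with overlapping matches counted, and 7 of the 10 genes held at least 1, against 28.5% of 13059 tested genes. Zfp36 had 3 sites in 774 bases, where 0.910% of other 3′ UTRs of like length held at least as many, and Dusp1 had 3 in 690 bases, where that share was 0.973%. Zfp36l1 had 3 in 1835 bases (3.65% of like 3′ UTRs) and Zfp36l2 had 3 in 1822 bases (3.62%). Spry1 had 2 in 1047 bases (6.29%), Spry2 had 2 in 856 bases (4.49%) and Spry4 had 4 in 3559 bases (3.26%). At least 1 site was held by 20.5% of other 3′ UTRs as long as that of Zfp36 and by 58.1% of those as long as that of Spry4. No UAUUUAU was found in the annotated 3′ UTR of Dusp4, Dusp5 or Dusp6. A match is a description of the letters, not a measured binding site. For each gene named below, the 30-base stretch of the mRNA with the most sites is written 5′ to 3′ in DNA letters (GENCODE M21, GRCm38), with the motif in capitals. They are shown so that the letters behind these counts can be read, and the stretch of Zfp36 holds 2 sites.
Zfp36: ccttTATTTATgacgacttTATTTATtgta
Dusp1: ggagctggtcctTATTTATttaacaccccc
Zfp36l1: cttatcaaaacgTATTTATtgccaaactat
Zfp36l2: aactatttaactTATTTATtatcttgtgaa
Spry1: tattgtaaagaaTATTTATtatgcgaatct
Spry2: tagtgtaaagaaTATTTATttgaagtttta
These lie at chr7:28376958-28376987, chr17:26506159-26506188, chr12:80108422-80108451, chr17:84184914-84184943, chr3:37644408-37644437 and chr14:105892092-105892121. Spry1 lies on the plus strand and the other 5 genes on the minus strand.

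Of the DUSP genes, Dusp1 and Dusp4 were lower on average in HRP2-KO, Dusp6 less so, and Dusp5 was the 1 gene of the 10 with a higher mean. Dusp1 was 2.56-fold lower, with groups that did not overlap, while Dusp4, Dusp5 and Dusp6 overlapped between the groups. None of these genes passed an adjusted p of 0.05 in edgeR with all 6 libraries, while DESeq2 called Dusp1, as given below.

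Dusp1 (Entrez 19252, chromosome 17, 26505591 to 26508472) encodes MKP-1, an inducible nuclear phosphatase that acts on p38 and JNK as well as ERK. Its values were 378, 539 and 312 CPM in HRP2-KO replicates 6, 7 and 44, against 1474, 951 and 723 CPM in WT replicates 10, 11 and 12. Every HRP2-KO library was under every WT library, and the spread within WT was wide, with a coefficient of variation of 36.7% over the 3 libraries. In the fit, Dusp1 had a log2 fold change of -1.36, with a standard error of 0.36 (edgeR adjusted p = 0.130), and -1.56 without HRP2-KO replicate 7 (edgeR adjusted p = 0.0315). The order of the WT libraries, with replicate 10 highest, was the same for Dusp1 as for the macrophage sum.

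Dusp4 (Entrez 319520, chromosome 8, 34807610 to 34819894) encodes MKP-2, another nuclear phosphatase. It had 3.95, 15.6 and 2.88 CPM in HRP2-KO replicates 6, 7 and 44, against 24.3, 15.7 and 13.1 CPM in WT replicates 10, 11 and 12. Replicate 7 lay within the WT range while replicates 6 and 44 were under it, as was also the case for the macrophage sum. Its log2 fold change was -1.24 with a standard error of 0.68 (edgeR adjusted p = 0.317), and -2.33 with a standard error of 0.37 without HRP2-KO replicate 7 (edgeR adjusted p = 0.0175). The call for Dusp4 rests on whether that 1 library is counted.

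Dusp5 (Entrez 240672, chromosome 19, 53529145 to 53541809) encodes a nuclear phosphatase that is selective for ERK. It had 47.8, 20.6 and 32.2 CPM in HRP2-KO replicates 6, 7 and 44, against 25.2, 15.9 and 19.9 CPM in WT replicates 10, 11 and 12. Replicate 7 again lay within the WT range, and the other HRP2-KO libraries were above it. Dusp5 had a log2 fold change of 0.72 with a standard error of 0.35 (edgeR adjusted p = 0.272), and 1.02 without HRP2-KO replicate 7 (edgeR adjusted p = 0.0415).

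Dusp6 (Entrez 67603, chromosome 10, 99263231 to 99267489) encodes MKP-3, the cytoplasmic ERK phosphatase. Its level was 58.1, 45.6 and 85.3 CPM in HRP2-KO replicates 6, 7 and 44, against 96.3, 109.6 and 77.9 CPM in WT replicates 10, 11 and 12. HRP2-KO replicate 44 lay within the WT range, unlike its place for Dusp1 and Dusp4. The log2 fold change was -0.59 with a standard error of 0.28 (edgeR adjusted p = 0.265), and -0.35 without HRP2-KO replicate 7 (edgeR adjusted p = 0.336).

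Per length, Dusp1 made up 80.0%, 89.1% and 76.6% of the summed TPM of these DUSP genes in HRP2-KO replicates 6, 7 and 44, against 92.9%, 90.0% and 89.4% in WT replicates 10, 11 and 12. For the phosphatases selective for ERK, the log2 ratio of Dusp5 to Dusp6 TPM was -0.31 ± 0.59 in HRP2-KO and -1.59 ± 0.48 in WT (SD, n = 3 each; exact two-sided permutation p = 0.1, the smallest possible, adjusted p = 0.125 over the 5 pairs). For Dusp1 to Dusp6 the log2 ratio was 3.25 ± 0.85 in HRP2-KO and 3.96 ± 0.45 in WT (SD, n = 3 each; exact two-sided permutation p = 0.3, also 0.3 after adjustment). In HRP2-KO replicate 6 Dusp5 stood above Dusp6, at 56.4 against 44 TPM, and in every other library it stood under it.

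The stretches upstream of Dusp1, Zfp36 and Dusp5 are shown because, among the 7 members with a promoter in the RefSeq table (GRCm38.p6), these 3 held a match to a motif searched. The motifs were the cyclic AMP response element TGACGTCA, the AP-1 site TGACTCA and the CArG box bound by serum response factor, on both strands of the 250 bases before the annotated start. In the CArG box CC is followed by a run of 6 A or T and then GG. Among 13945 promoters of 10906 tested genes, TGACGTCA occurred in 2.44%, TGACTCA in 3.43% and a CArG box in 1.18%. Dusp1 held 1 TGACGTCA, starting 143 bases before the start. Zfp36 held 1 CArG box at 58 bases, and Dusp5 held 2 adjoining ones at 82 and 72 bases, while TGACTCA was in none of the 7 windows. Capitals mark these matches, which are letters in this window and not measured binding.
Dusp1: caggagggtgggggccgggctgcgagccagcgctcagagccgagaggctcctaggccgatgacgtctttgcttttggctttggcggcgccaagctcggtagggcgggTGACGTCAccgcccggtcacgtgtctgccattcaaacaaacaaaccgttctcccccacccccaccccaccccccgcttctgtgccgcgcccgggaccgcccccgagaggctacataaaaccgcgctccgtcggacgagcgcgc
Zfp36: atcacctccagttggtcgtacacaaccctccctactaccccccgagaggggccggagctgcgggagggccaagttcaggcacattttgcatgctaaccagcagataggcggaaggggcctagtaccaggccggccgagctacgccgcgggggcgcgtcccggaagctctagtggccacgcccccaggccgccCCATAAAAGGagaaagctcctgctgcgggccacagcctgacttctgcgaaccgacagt
Dusp5: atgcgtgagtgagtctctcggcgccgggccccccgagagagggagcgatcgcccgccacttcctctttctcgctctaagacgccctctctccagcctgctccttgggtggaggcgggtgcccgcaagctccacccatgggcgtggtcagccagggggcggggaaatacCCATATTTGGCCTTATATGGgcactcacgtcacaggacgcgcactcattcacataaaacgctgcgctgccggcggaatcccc
They lie at chr17:26508473-26508722 and chr7:28379229-28379478 on the minus strand and chr19:53528895-53529144 on the plus strand. Of the genes with a CArG box, Zfp36 was lower on average in HRP2-KO, and Dusp5 was higher on average with groups that overlapped. A link between these letters and the levels was not tested.

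The Sprouty genes had the lowest summed TPM of the 3 families and were all lower on average in HRP2-KO. Spry2 and Spry4 did not overlap between the groups, and Spry1 did. None passed an adjusted p of 0.05 with all 6 libraries.

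Spry2 (Entrez 24064, chromosome 14, 105891947 to 105896819) encodes a receptor tyrosine kinase antagonist that its own pathway induces. It had 16.4, 28.6 and 8.53 CPM in HRP2-KO replicates 6, 7 and 44, against 33.5, 43.2 and 48.7 CPM in WT replicates 10, 11 and 12. WT replicate 10, the library with the highest macrophage sum, was the lowest WT library here, the reverse of its place for Dusp1. Spry2 had a log2 fold change of -1.23 with a standard error of 0.44 (edgeR adjusted p = 0.194), and -1.71 without HRP2-KO replicate 7 (edgeR adjusted p = 0.0238).

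Spry4 (Entrez 24066, chromosome 18, 38586247 to 38601347), a further Sprouty antagonist, had 12.1, 9.74 and 5.75 CPM in HRP2-KO replicates 6, 7 and 44, against 13.9, 16.7 and 14.6 CPM in WT replicates 10, 11 and 12. Its WT values were close together, with a coefficient of variation of 34.9% in HRP2-KO and 9.53% in WT. The log2 fold change was -0.71 with a standard error of 0.31 (edgeR adjusted p = 0.246), and -0.72 without HRP2-KO replicate 7 (edgeR adjusted p = 0.169).

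Spry1 (Entrez 24063, chromosome 3, 37639947 to 37644599), which in mice limits growth factor signalling in the developing kidney, had 32.8, 10.2 and 13.0 CPM in HRP2-KO replicates 6, 7 and 44, against 78.2, 18.9 and 28.9 CPM in WT replicates 10, 11 and 12. WT replicate 10 alone was far above the rest, and HRP2-KO replicate 6 exceeded the other WT libraries. For Spry1 the log2 fold change was -1.17 with a standard error of 0.67 (edgeR adjusted p = 0.332), -0.83 without HRP2-KO replicate 7 (edgeR adjusted p = 0.384) and -0.35 without WT replicate 10 (edgeR adjusted p = 0.779).

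**Figure D2:**
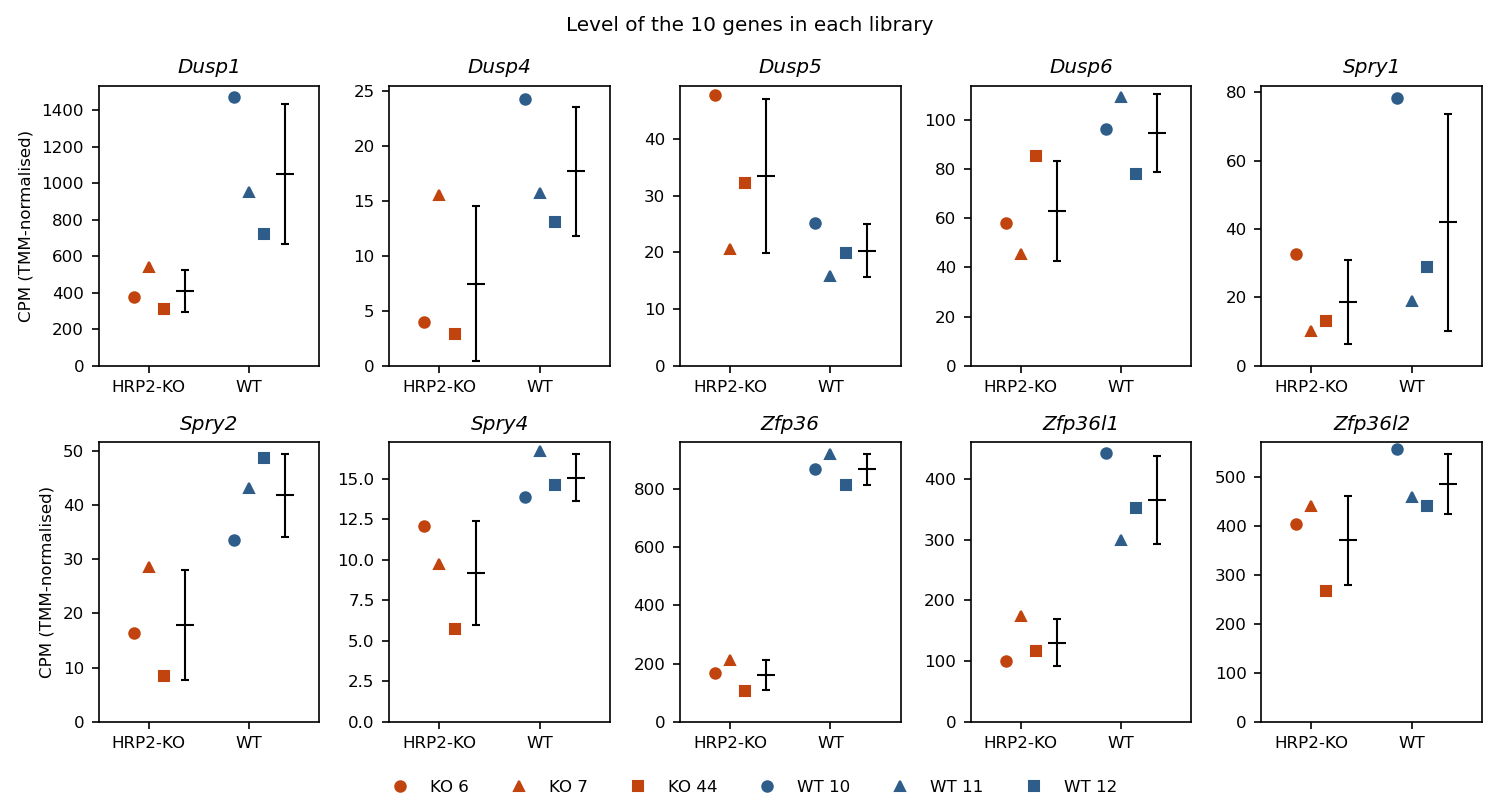
CPM (TMM-normalised, linear axis from 0) of each of the 10 genes, HRP2-KO on the left and WT on the right, 1 point per library, with the mean and SD of the 3 libraries as a bar beside them. Zfp36 lies between 107 and 211 CPM in HRP2-KO and between 813 and 918 CPM in WT, while Dusp4 and Dusp5 in HRP2-KO replicate 7 (triangle) lie within the WT range.

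Across the set, 9 of the 10 genes had a negative log2 fold change, against 49.0% of all tested genes, and their median was -1.20 against 0.02 over all tested genes. The 10 genes were chosen with earlier results of these data known, so the counts in this paragraph describe the set and do not test it. All 10 passed the filter on low counts. In 6 of the 10 (Zfp36, Zfp36l1, Zfp36l2, Dusp1, Spry2 and Spry4) every HRP2-KO library was under every WT library, a pattern held by 14.0% of all tested genes, where 31.0% were separate in either direction. With all 6 libraries 0 of the 10 passed the adjusted threshold in edgeR, and 0.00730% of all tested genes did, which is 1 gene, Igf2. At an unadjusted p below 0.05 in edgeR, 4 of the 10 were lower (Zfp36, Zfp36l1, Dusp1 and Spry2) and 0 higher, against 9.10% and 12.7% of all tested genes. DESeq2 called 3 of the 10 lower, namely Zfp36 (adjusted p = 2.41e-12), Zfp36l1 (adjusted p = 0.000219) and Dusp1 (adjusted p = 0.00737), where it called 4.76% of genes lower and 5.62% higher. Limma voom called Zfp36 alone, where it called 0.270% of genes. Without HRP2-KO replicate 7 edgeR called 5 of the 10 lower and 1 higher, where it called 11.9% of genes lower and 12.1% higher. That fit also called 14 of the 15 macrophage markers lower, where edgeR with all 6 libraries called 0 of them. The part of the macrophage level in these calls was not tested. With any other single library left out, edgeR called 0 of the 10.

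**Figure D3:**
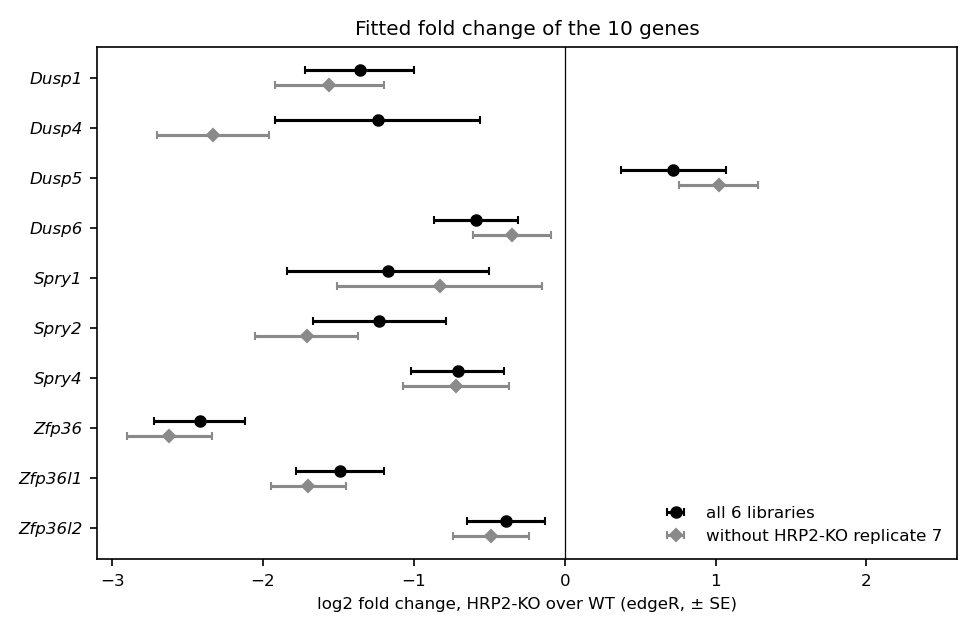
Fitted log2 fold change of HRP2-KO over WT (edgeR, points, with bars of 1 standard error) for the 10 genes, with all 6 libraries in black and without HRP2-KO replicate 7 in grey. Zfp36 lies at -2.42 and -2.62, Dusp4 moves to -2.33 from -1.24 when that library is left out, and Dusp5 is the 1 gene above 0.

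The members did not follow the libraries in 1 way. HRP2-KO replicate 44 was the lowest library for 6 of the 10 genes and WT replicate 10 the highest for 5. In each HRP2-KO library 8 of the 10 genes lay under the WT range. The share of all tested genes under it in a single library was not counted, so this number has no background beside it. The genes within or above the WT range differed, being Dusp5 and Spry1 in replicate 6, Dusp4 and Dusp5 in replicate 7, and Dusp5 and Dusp6 in replicate 44. Over the 6 libraries, which share genotype and library differences, the highest Pearson correlations of log2 CPM were 0.94 for Zfp36 with Zfp36l1 and for Dusp1 with Zfp36l1, and Dusp5 had its lowest at -0.74 with Dusp4 and with Spry2. HRP2-KO replicate 44 also differed in its balance of short and long transcripts: with genes put in 5 groups by length, the median of the shortest group was 0.53 and that of the longest -0.50 from the mean of the 6 libraries, in log2 units. Dusp1, Dusp4, Dusp5, Spry1, Spry2 and Zfp36 were in the second-shortest group, whose median was 0.16 in that library, Dusp6 and Zfp36l1 in the middle group, at -0.02, and Spry4 and Zfp36l2 in the second-longest, at -0.27. The part of this in the values of replicate 44 was not tested.

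In TPM the order of the 10 genes was led by Dusp1 in all 3 HRP2-KO libraries and in WT replicate 10, and by Zfp36 in WT replicates 11 and 12. Dusp1 averaged 407 ± 144 TPM in HRP2-KO and 1205 ± 385 TPM in WT, and Zfp36 averaged 179 ± 72.1 and 1109.6 ± 114 TPM in the same groups (SD, n = 3 each). The order of Dusp1 and Zfp36 was not the same in every WT library. In HRP2-KO Zfp36l2, at 201 ± 70.4 TPM, stood between them and above Zfp36 in each of the 3 libraries, though only narrowly in replicate 7. Spry4, at 3.8 ± 1.76 TPM in HRP2-KO and 7.16 ± 1.09 TPM in WT, and Dusp4, at 5.98 ± 5.78 and 16.2 ± 4.54 TPM in the same groups, had the lowest means. The shift of the TPM scale over all genes, given above, is also in these means.

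Outside the set, 5 genes had the pattern most like the mean of the 10 genes' standardised log2 CPM over the 6 libraries, with Pearson correlations of 0.991 to 0.996. They were Ntng2, Jun, Hyal1, Apc2 and Itga8. Jun, a subunit of the AP-1 transcription factor, had 195, 223 and 96.7 CPM in HRP2-KO replicates 6, 7 and 44, against 779, 572 and 425 CPM in WT replicates 10, 11 and 12. All 5 genes were highest in WT replicate 10 and lowest in HRP2-KO replicate 44, as was the mean of the 10 genes. They were picked for likeness to that mean, so this order follows from the choice and is no separate result.

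The kinases and adaptors that carry the signal to ERK were spread on both sides of zero. Of 21 tested genes of the RAS to ERK cascade, 12 were lower and 9 higher in HRP2-KO (median log2 fold change -0.11), and edgeR and DESeq2 called 0 each. At an unadjusted p below 0.05, 1 was lower and 1 higher, where 9.10% of all tested genes were lower and 12.7% higher. Without HRP2-KO replicate 7 edgeR called 2 lower and 1 higher, where it called 11.9% of all genes lower and 12.1% higher. Araf, a RAF kinase, was at 63.5 ± 3.85 CPM in HRP2-KO and 83.4 ± 3.59 CPM in WT, and Map2k2, the MEK2 kinase, was at 176 ± 67.5 and 102 ± 3.97 CPM in the same groups (SD, n = 3 each). The exchange factor gene Sos2 averaged 25.9 ± 14.3 CPM in HRP2-KO and 49.9 ± 5.87 CPM in WT.

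Of 19 other genes that restrain receptors, RAS or ERK, all tested, 13 were lower and 6 higher, with a median of -0.29 for the log2 fold change. With an unadjusted p below 0.05, 4 were lower and 0 higher (9.10% and 12.7% of all tested genes). EdgeR called 0 and DESeq2 called 3 lower (4.76% of all genes). Socs3, an inhibitor of cytokine receptor signalling, was at 70.8 ± 23.6 CPM in HRP2-KO and 166 ± 29.1 CPM in WT (SD, n = 3 each). Pea15a, which holds ERK in the cytoplasm, was at 208 ± 21.8 and 356 ± 6.04 CPM in the same groups. Rasa1, a GTPase-activating protein for RAS, was at 69.3 ± 8.87 CPM in HRP2-KO and 106 ± 9.82 CPM in WT, and Sh2b3, the adaptor LNK, at 57 ± 13.3 and 105 ± 33.5 CPM. With HRP2-KO replicate 7 left out, edgeR called 3 of the 19 lower, against 11.9% of all genes.

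Of 15 tested DUSP, Sprouty and SPRED relatives of the 10 genes, 6 were lower and 9 higher, and the median log2 fold change was 0.05. Below an unadjusted p of 0.05, 2 were lower and 2 higher (9.10% and 12.7% of all tested genes). EdgeR called 0, DESeq2 called 1 higher (5.62% of all genes), and without HRP2-KO replicate 7 edgeR called 2 higher (12.1% of all genes). Dusp10, a phosphatase of p38 and JNK, had 29.3, 18.2 and 10.8 CPM in HRP2-KO replicates 6, 7 and 44, against 8.53, 6.65 and 6.59 CPM in WT replicates 10, 11 and 12, a log2 difference of 1.42 (edgeR adjusted p = 0.137). Its groups did not overlap, in the direction opposite to Dusp1. Spred1, a Sprouty-related inhibitor of RAS, averaged 76.3 ± 12.8 CPM in HRP2-KO and 119.9 ± 32.1 CPM in WT (SD, n = 3 each). Dusp22 averaged 6.23 ± 1.82 and 11.9 ± 1.41 CPM in the same groups, and Dusp9 2.31 ± 1.38 and 0.489 ± 0.351 CPM. Zfp36l3 did not pass the filter, with 0.0535 CPM in HRP2-KO replicate 7 and 0 in the others.

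Transcripts that ERK activity is known to induce lay on both sides of zero. Of 19 tested, 10 were lower and 9 higher, and the median log2 fold change was -0.20. At an unadjusted p below 0.05, 3 were lower and 2 higher (9.10% and 12.7% of all tested genes). EdgeR called 0 and DESeq2 called 2 lower and 1 higher (4.76% and 5.62% of all genes). Without HRP2-KO replicate 7 edgeR called 4 lower and 3 higher (11.9% and 12.1% of all genes). Fos, an AP-1 subunit, had 226, 212 and 146 CPM in HRP2-KO replicates 6, 7 and 44, against 913, 981 and 896 CPM in WT replicates 10, 11 and 12, and its fitted log2 difference was -2.26 (SE 0.25, edgeR adjusted p = 0.0653). All 3 HRP2-KO libraries were far under the WT libraries, replicate 7 included, as for Zfp36. Myc was at 162 ± 52.0 CPM in HRP2-KO and 69.1 ± 15.6 CPM in WT, and Fosl1, another AP-1 subunit, at 86.6 ± 25.3 and 47.4 ± 8.37 CPM (SD, n = 3 each). Etv1, an ETS factor gene, averaged 9.86 ± 4.76 CPM in HRP2-KO and 22.7 ± 3.88 CPM in WT.

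**Figure D4:**
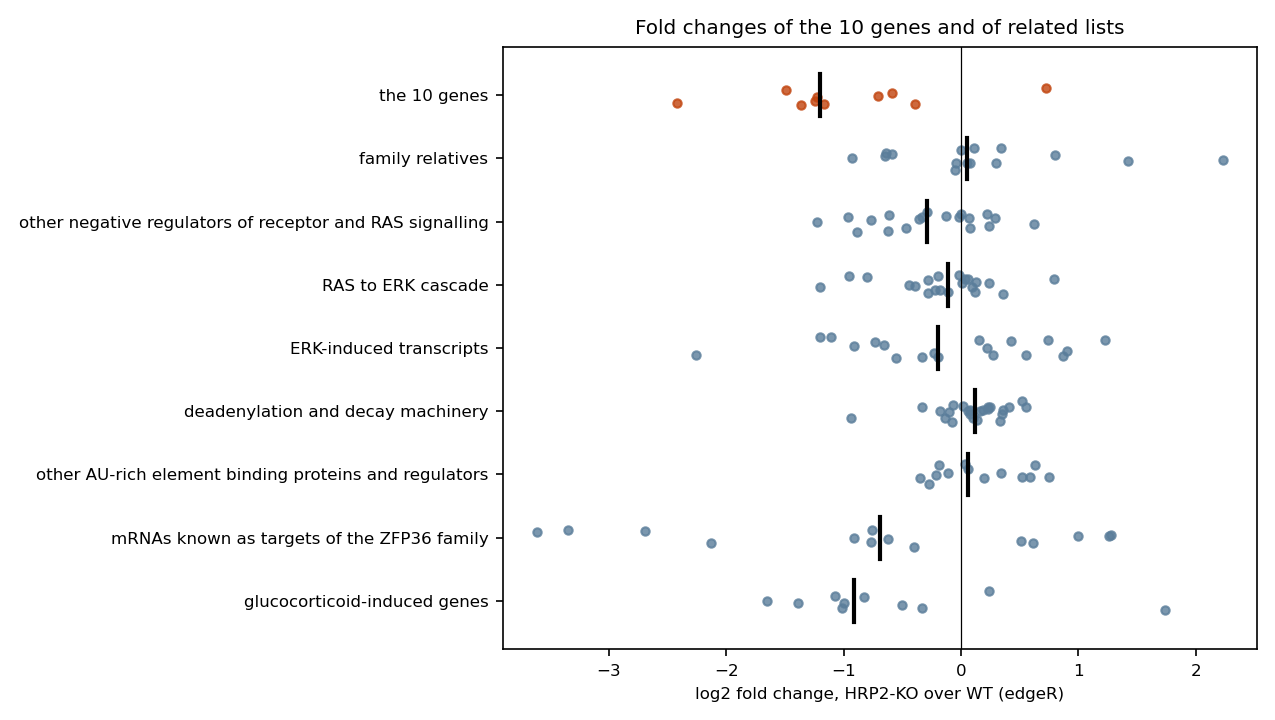
Fitted log2 fold change of HRP2-KO over WT (edgeR) for the 10 genes, on the top line, and for the tested genes of 8 related lists, 1 point per gene with a black line at the median. The median of the 10 genes is -1.20, and those of the lists run between -0.91 (glucocorticoid-induced genes) and 0.12 (deadenylation and decay machinery).

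Among 24 tested genes of the deadenylation, decapping and decay machinery that ZFP36 proteins recruit, 7 were lower and 17 higher, and the median log2 fold change was 0.12. EdgeR and DESeq2 called 0 each, and without HRP2-KO replicate 7 edgeR called 2 higher, where it called 12.1% of all genes higher. Cnot9, a CCR4-NOT subunit, was at 46.1 ± 9.07 CPM in HRP2-KO and 31.5 ± 1.95 CPM in WT, and Edc4, a decapping scaffold, at 76.0 ± 7.15 and 52.8 ± 0.913 CPM (SD, n = 3 each). Cnot2 averaged 72.7 ± 8.81 CPM in HRP2-KO and 56.6 ± 1.81 CPM in WT, and Btg2, an antiproliferative protein that binds the deadenylase, 173 ± 91.1 and 332 ± 56.5 CPM. With an unadjusted p below 0.05, 2 genes of the list were higher and 0 lower, against 12.7% and 9.10% of all tested genes.

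Other proteins that bind or govern AU-rich mRNAs were split, with 5 lower and 8 higher of 13 tested and a median of 0.06 for the log2 fold change. EdgeR called 0, DESeq2 called 1 higher (5.62% of all genes), and without HRP2-KO replicate 7 edgeR called 1 lower and 4 higher (11.9% and 12.1% of all genes). Hnrnpd, also called AUF1, was at 117 ± 20.9 CPM in HRP2-KO and 69.9 ± 2.31 CPM in WT (SD, n = 3 each). Elavl1, or HuR, which protects such mRNAs, was at 73.4 ± 17.0 and 47.4 ± 1.06 CPM, and Khsrp at 111 ± 7.97 and 77.2 ± 6.54 CPM, in the same groups. Ybx1 averaged 819 ± 141 CPM in HRP2-KO and 544 ± 24.7 CPM in WT. Below an unadjusted p of 0.05, 4 of the 13 were higher and 0 lower, where 12.7% of all tested genes were higher and 9.10% lower.

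Among 17 mRNAs known as targets of the ZFP36 family, 14 were tested, of which 9 were lower and 5 higher (median log2 fold change -0.69). At an unadjusted p below 0.05, 3 were lower and 0 higher (9.10% and 12.7% of all tested genes). EdgeR called 0 and DESeq2 called 3 lower (4.76% of all genes). Without HRP2-KO replicate 7 edgeR called 3 lower and 1 higher (11.9% and 12.1% of all genes). Tnf, the classical target, had 1.51, 36.3 and 7.49 CPM in HRP2-KO replicates 6, 7 and 44, against 154, 82.8 and 56.5 CPM in WT replicates 10, 11 and 12. Cxcl2, a neutrophil chemokine, had 2.10, 62.2 and 12.5 CPM in HRP2-KO replicates 6, 7 and 44, against 583, 210.4 and 144 CPM in WT replicates 10, 11 and 12. For both, as for the macrophage sum, replicate 7 was the highest HRP2-KO library and WT replicate 10 the highest of all. Replicate 7 lay under every WT library for both genes, as it did for 1 of the 15 macrophage markers, Mrc1. Mrc1 had 257 CPM there, against 1366, 643 and 478 CPM in WT replicates 10, 11 and 12. The macrophage sum of replicate 7 was above those of WT replicates 11 and 12, and Lyz2 carried 7427 of its 15704 CPM. The part of the macrophage level in Tnf and Cxcl2 was not tested. Il10 averaged 0.556 ± 0.540 CPM in HRP2-KO and 5.70 ± 5.67 CPM in WT, and Plk3, a kinase of the stress response, 29.6 ± 11 and 50.2 ± 14.9 CPM (SD, n = 3 each). Csf2, Il1b and Il23a did not pass the filter.

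Dusp1 and Zfp36 are also induced by glucocorticoids, and 8 of 10 other genes known for that were lower in HRP2-KO, where the median log2 fold change was -0.91. With an unadjusted p below 0.05, 5 were lower and 1 higher (9.10% and 12.7% of all tested genes). EdgeR called 0 and DESeq2 called 3 lower and 1 higher (4.76% and 5.62% of all genes). With HRP2-KO replicate 7 left out, edgeR called 4 lower (11.9% of all genes). Errfi1 is in this list and among the negative regulators above. Fkbp5, a chaperone of the glucocorticoid receptor, had 142, 163 and 133 CPM in HRP2-KO replicates 6, 7 and 44, against 361, 273 and 240.5 CPM in WT replicates 10, 11 and 12. Tsc22d3, or GILZ, had 90.2, 83.0 and 95.7 CPM in HRP2-KO replicates 6, 7 and 44, against 132, 262 and 171 CPM in WT replicates 10, 11 and 12. For both genes HRP2-KO replicate 7 lay with the other HRP2-KO libraries and not with WT. Klf9 averaged 83.0 ± 28.1 CPM in HRP2-KO and 168 ± 41.7 CPM in WT, and Angptl4, in the other direction, 14.0 ± 5.86 and 4.2 ± 2.65 CPM (SD, n = 3 each).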

How the data were processed

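Per the labels' protocols, RNA of 6 BMSC samples was extracted with Trizol, and the libraries were BGI's standard ones. BWA and the build GRCm38.p6 are named in the submitters' processing notes. No label or header used here states the counting program, the annotation or the strand setting. Reads of overlapping or antisense genes therefore cannot be separated. The authors deposited estimated counts, which are not normalized and not all whole, together with TPM and FPKM values, which are scaled for transcript length and depth, per the file headers. Another 6 columns of per-sample values and 24 average columns were not used.

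Estimated counts were rounded. The edgeR function filterByExpr (count 10, total 15) kept 13696 genes, which were then scaled with TMM factors (0.906 to 1.07). HRP2-KO was compared with WT by edgeR 4.0.16 (R 4.3.3; quasi-likelihood F-test, two-sided, Benjamini-Hochberg adjustment over all tested genes, threshold 0.05). The standard error is the log2 fold change divided by the square root of F. A gene with no count allows up to 0.139 to 0.16 TMM-scaled CPM in a library (3 counts, counting error only). Replicates all differed by more than counting noise (lowest chi-square per degree of freedom 49.9). Transcript length came from counts over FPKM, and log2 CPM used a prior count of 2.

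The 10 genes and the 8 related lists were chosen with earlier results of these data known. The 5 pairs of genes compared by ratio are a selection of the pairs within the families. No test of them was planned, and the adjustment covers those pairs alone. Named genes are the 10, Hdgfl2, the 4 genes of each list with the smallest p (1 of them is not reported here), and the 5 genes (mean of at least 5 CPM) most like the 10; Igf2, Errfi1, Zfp36l3 and the other genes named as not passing the filter were named after their values were seen. Positions and promoters are from RefSeq (GRCm38.p6), matched by Entrez ID or symbol, and 3′ UTRs from GENCODE M21. Alternatives used DESeq2 1.42.0, limma 3.58.1, other scalings and filters, and each replicate left out. Figures were drawn with matplotlib 3.10.9.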

Additional observations from a re-analysis of the deposited data

How the results depend on the processing

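No alternative turned the direction of any of the 10 genes, and 139 of the 150 fits of single genes under alternatives kept their side of the threshold. The other 11 passed it. DESeq2 gave log2 fold changes of -2.42 for Zfp36, -1.48 for Zfp36l1 and -1.35 for Dusp1, and Zfp36 also passed with limma voom at -2.47 (adjusted p = 0.0490) and with log2(TPM + 1) at -2.72 (adjusted p = 0.0418). The count of called members was 3 with DESeq2, 1 with limma voom and 1 with log2(TPM + 1), against 0 in edgeR. Over all genes DESeq2 called 1566, limma voom 37, log2(TPM + 1) 42 and log2(TPM + 0.1) 27, against 1. On the TPM scale the median of all genes moved to -0.21 (pseudocount 1) and -0.24 (pseudocount 0.1) from 0.02.

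Leaving out 1 replicate at a time gave 0 to 6 called members and 0 to 3366 called genes; the highest counts came without HRP2-KO replicate 7, and the count of 0 genes without HRP2-KO replicate 44. The log2 fold change then ran from -2.62 to -2.21 for Zfp36, -1.70 to -1.32 for Zfp36l1, -0.49 to -0.21 for Zfp36l2, -1.56 to -1.03 for Dusp1, -2.33 to -0.88 for Dusp4, 0.41 to 1.02 for Dusp5, -0.88 to -0.35 for Dusp6, -1.82 to -0.35 for Spry1, -1.71 to -0.91 for Spry2 and -0.96 to -0.47 for Spry4. The edgeR adjusted p of Zfp36 ran from 0.0149 to 0.275 over these fits, which have fewer samples. It ran from 0.0169 to 0.289 for Zfp36l1, 0.0315 to 0.327 for Dusp1 and 0.0175 to 0.590 for Dusp4. For Dusp5 it ran from 0.0415 to 0.550 and for Spry2 from 0.0238 to 0.417. The lowest of each range came without HRP2-KO replicate 7, and leaving out any other replicate gave 0 called members. The cause of these changes was not tested. No paired analysis was possible because the groups share no replicate numbers.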
